A study of Mus musculus with 24 samples.

Results

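Genes of calcium handling at the sarcoplasmic reticulum were described in mouse hearts, in RNA of left ventricle and septum. The 10 genes were Atp2a2, Pln, Sln, Ryr2, Casq2, Slc8a1, Cacna1c, Jph2, Hrc and Trdn, chosen by symbol from the 25229 gene symbols of a table of read counts. All 10 were in the table, and all 10 were among the 13571 genes that passed the filter on low counts. The mice were C57BL/6 males with transverse aortic constriction (TAC), a surgical narrowing that loads the left ventricle, or sham surgery. After 1 week of recovery they breathed benzene at 50 ppm, for 6 hours a day and 5 days a week, or HEPA filtered air, for 6 weeks. The groups were TAC/Benzene, TAC/Air, Sham/Benzene and Sham/Air, with 6 poly-A RNA-seq libraries each. Which mouse each library came from is not named in the labels, and p-values therefore cover no more than the spread among libraries. The age of the mice is not given in the sources used here.

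In each heartbeat, calcium enters a cardiomyocyte through L-type channels of the T-tubule and opens ryanodine receptors of the apposed sarcoplasmic reticulum, which release stored calcium to the myofilaments. Relaxation follows as the SERCA pump returns calcium to the reticulum and the sodium-calcium exchanger moves the rest out of the cell. Small membrane proteins restrain the pump, and luminal proteins buffer the store and tune its release.

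Levels in the hearts differed widely between the genes. Per kilobase of the longest annotated transcript, which need not be the form made in heart, Sham/Air libraries averaged 4313 CPM of Pln, which encodes the SERCA inhibitor phospholamban, and 3149 CPM of Atp2a2, which encodes the cardiac SERCA pump itself. CPM are read counts scaled to a common library total. Casq2, for the calcium-buffering calsequestrin of the lumen, averaged 588 CPM per kilobase, and Hrc, for the luminal histidine-rich calcium-binding protein, averaged 530.2. Trdn, for triadin, which ties calsequestrin to the release channel, averaged 143.7 on the same scale, Jph2, for the junctophilin that holds T-tubule and reticulum together, 134.8, and Ryr2, for the release channel, 115.9. Slc8a1, for the sodium-calcium exchanger, averaged 35.6 CPM per kilobase, Cacna1c, for the pore of the L-type channel, 21.2, and Sln, for the SERCA inhibitor sarcolipin, 4.88. Over the Sham/Air libraries the ranges of Pln and Atp2a2 overlapped, as did those of Casq2 and Hrc, and those of Trdn, Jph2 and Ryr2. Without replicate 1 of that group, which stood apart from all other libraries, the averages per kilobase were 3797 CPM for Pln, 2958 for Atp2a2, 522.2 for Casq2, 425.4 for Hrc, 156.3 for Jph2, 105.2 for Trdn and 104.9 for Ryr2. Jph2 then ranked above Trdn, and of these pairs only Trdn and Ryr2 still overlapped. On that basis Slc8a1 averaged 29.5 CPM per kilobase, Cacna1c 22 and Sln 5.43.

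Promoters in the RefSeq annotation of GRCm38.p6 were found for 7 of the 10 genes, namely Pln, Ryr2, Casq2, Slc8a1, Cacna1c, Jph2 and Hrc, and not for Atp2a2, Sln and Trdn. The 250 bases before the start of Pln (chr10:53337436-53337685, plus strand), Ryr2 (chr13:12106946-12107195, minus strand), Hrc (chr7:45335019-45335268, plus strand) and Casq2 (chr3:102086165-102086414, plus strand) are shown because the first 3 genes had lower transcript levels after TAC in at least 1 comparison and Casq2 did not. Capitals mark matches on either strand to the letters CATTCC of the MCAT element, AGATAA of the motif bound by GATA factors, TATAAA of the TATA box, or CAGCTG of an E-box.
Pln: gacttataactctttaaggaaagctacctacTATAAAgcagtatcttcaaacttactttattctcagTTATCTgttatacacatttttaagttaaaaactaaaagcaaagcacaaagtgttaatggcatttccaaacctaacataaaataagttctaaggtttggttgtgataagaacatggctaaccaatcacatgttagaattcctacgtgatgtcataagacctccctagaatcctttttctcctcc
Ryr2: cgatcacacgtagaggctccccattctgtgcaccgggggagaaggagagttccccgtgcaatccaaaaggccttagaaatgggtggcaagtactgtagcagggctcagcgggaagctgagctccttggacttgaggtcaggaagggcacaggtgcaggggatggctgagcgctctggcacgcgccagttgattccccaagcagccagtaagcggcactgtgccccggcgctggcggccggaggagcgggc
Hrc: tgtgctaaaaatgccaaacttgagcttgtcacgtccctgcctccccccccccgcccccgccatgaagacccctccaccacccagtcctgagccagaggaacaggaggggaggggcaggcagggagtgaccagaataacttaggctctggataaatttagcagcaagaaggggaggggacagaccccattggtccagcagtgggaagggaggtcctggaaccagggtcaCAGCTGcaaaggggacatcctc
Casq2: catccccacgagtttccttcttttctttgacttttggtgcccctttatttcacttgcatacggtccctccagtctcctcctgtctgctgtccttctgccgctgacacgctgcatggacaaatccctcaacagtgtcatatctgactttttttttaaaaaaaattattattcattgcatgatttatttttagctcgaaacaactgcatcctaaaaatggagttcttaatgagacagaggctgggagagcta
The Pln window held TATA box letters 219 bases and GATA letters 183 bases before the start, and the Hrc window held E-box letters 22 bases before it. The Ryr2 and Casq2 windows held none of the 4. Among the windows not shown, Slc8a1 held GATA letters at 68 bases, and the 3 starts of Cacna1c held none. Both starts of Jph2 held E-box letters, at 29 and 9 bases. The Jph2 windows overlap, and these letters are 1 and the same site. The letters of MCAT occurred in 12.6%, GATA in 9.99%, TATA box in 12.4% and E-box in 13.0% of the 32851 mouse windows of that length. For Hrc and Slc8a1 the bases after the RefSeq start were not found in a GENCODE vM21 transcript of the gene.

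Total counts per library ran from 4170660 to 14632231. The lowest total was that of Sham/Air replicate 1, which had a Spearman correlation of 0.852 to 0.913 with the other libraries, while these correlated at 0.963 to 0.996 among themselves. It held the highest or lowest Sham/Air value of all 10 genes, so the fold changes of the 10 genes in air are given with and without it. Libraries of every group also differed along the GC content of genes. The rank correlation of a library's deviation from the mean of all libraries with gene GC content spanned -0.18 to 0.50 in TAC/Benzene, -0.47 to 0.46 in TAC/Air, -0.41 to 0.52 in Sham/Benzene and -0.71 to 0.51 in Sham/Air. It was above 0 in 4 TAC/Benzene libraries and in 3 libraries of each other group. TAC/Benzene replicate 4, counted as below 0, was at -0.00547, so its sign carries almost no trend. The summed level of 13 cardiomyocyte markers was 69264 to 83737 CPM in TAC/Benzene and 64273 to 86006 CPM in TAC/Air, against 80403 to 105953 CPM in Sham/Benzene and 91124 to 106751 CPM in Sham/Air. The summed level of 8 fibroblast markers was 2814 to 3239 CPM in TAC/Benzene and 3141 to 3662 CPM in TAC/Air, against 1547 to 1989.5 CPM in Sham/Benzene and 1517 to 3287.5 CPM in Sham/Air, where replicate 1 was the highest. Of the fibroblast markers, Ddr2 averaged 57.2 CPM in TAC/Benzene and 59.6 in TAC/Air, against 61.3 in Sham/Benzene and 66.9 in Sham/Air. The others averaged higher in TAC within each exposure, with Col3a1 at 709.1 and 724.0 CPM against 250.2 and 211.1. In Sham/Air replicate 1, Dcn (2518.8 CPM), Lum, Pdgfra and Ddr2 were at the highest level of the group, and Col1a2, Col3a1 and Tcf21 at the lowest. Each marker had counts in at least 1 library. The cardiomyocyte markers did not move alike. Myh6, the largest of them, averaged 15926 CPM in TAC/Benzene and 15529 in TAC/Air, against 24557 in Sham/Benzene and 28564 in Sham/Air. Mybpc3 averaged 4696 and 4787 CPM in these TAC groups, against 4196 and 4368 in these sham groups. In bulk tissue, fewer cells of a type, less RNA per cell and a change in single marker genes cannot be told apart.

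**Figure D1:**
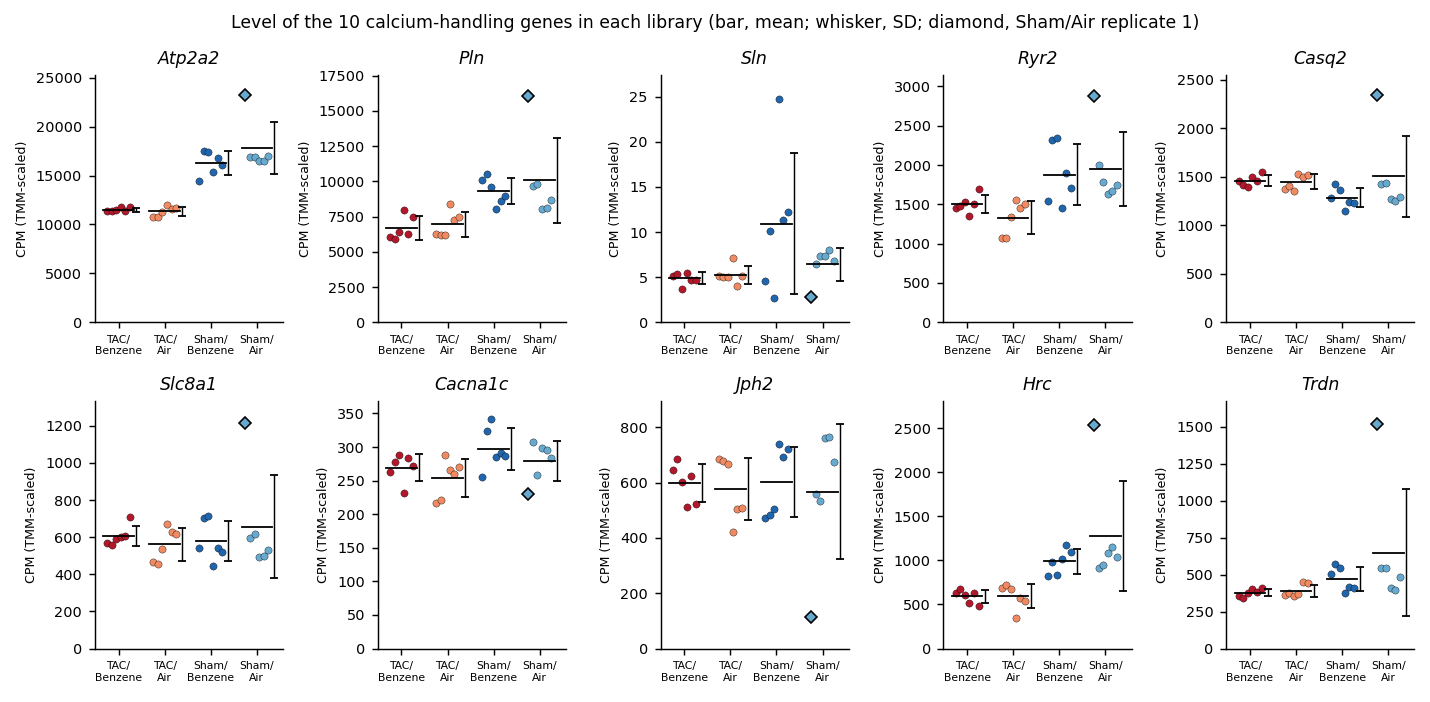
Level of each of the 10 genes in CPM (vertical axes, from 0) in the 6 libraries of each group, with the group mean as a bar and the SD as a whisker. The 12 TAC libraries sit between 10764 and 11953 CPM of Atp2a2, below all 12 sham libraries, and Sham/Air replicate 1, drawn as a diamond, is the highest or lowest Sham/Air library in each panel.

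Transcripts of the pump, of its main inhibitor phospholamban and of the luminal protein Hrc were lower after TAC under both exposures. In benzene, 4 of the 10 genes were lower in TAC/Benzene than in Sham/Benzene at a Benjamini-Hochberg adjusted p under 0.05 by edgeR's quasi-likelihood test, Atp2a2, Pln, Sln and Hrc, where 7.97% of all tested genes were lower. None was higher, where 8.67% of tested genes were higher at the adjusted threshold, and none was higher at an unadjusted p under 0.05. DESeq2 called 0 and limma-voom called 1 of the 10 higher, where these tools called 2693 and 4497 of all tested genes in either direction. In air, 5 were lower in TAC/Air than in Sham/Air, Atp2a2, Pln, Ryr2, Hrc and Trdn, where 7.35% of tested genes were lower, and 0 were higher by edgeR, DESeq2 or limma-voom, where 8.81% were higher by edgeR. DESeq2 called 2694 and limma-voom 3739 of all tested genes in air, in either direction. At an unadjusted p under 0.05, edgeR had 0 higher in air, and limma-voom had Casq2 higher, at 0.13 ± 0.05 (unadjusted p = 0.0219, adjusted p = 0.0717). Without Sham/Air replicate 1 the fit, which shares its estimate of spread over all groups, called 6 lower and 1 higher in benzene, beside 13.2% and 13.6% of genes, and 4 lower and 0 higher in air, beside 11.1% and 12.1%. The median log2 fold change of the 10 genes was -0.32 in benzene and -0.44 in air, beside -0.0045 and -0.01 over all tested genes. Without Sham/Air replicate 1 the median of the 10 genes in air lay between -0.35, the value of Pln, and -0.28, the value of Trdn.

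The pump gene Atp2a2 separated the surgeries completely. Its lowest, median and highest levels were 11339, 11405.5 and 11792 CPM in TAC/Benzene and 10764, 11457 and 11953 CPM in TAC/Air. They were 14402, 16469 and 17555 CPM in Sham/Benzene and 16533, 16906 and 23282 CPM in Sham/Air. No TAC library reached the lowest sham library, and within TAC the spread was narrow, at an SD of 211.7 CPM in TAC/Benzene and 481.6 CPM in TAC/Air. The log2 fold change was -0.50 ± 0.08 (SE) in TAC/Benzene over Sham/Benzene (adjusted p = 4.03e-05) and -0.65 ± 0.08 in TAC/Air over Sham/Air (adjusted p = 9.77e-07). The call held in every alternative run, and the value in air was -0.56 without Sham/Air replicate 1. Of the 13 cardiomyocyte markers, 5 were lower and 0 higher in each TAC comparison, with a median log2 fold change of -0.25 in benzene and -0.18 in air, and their part in the fall of Atp2a2 was not tested.

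Phospholamban transcript fell with the pump. Pln had a lowest, median and highest level of 5892, 6338 and 7968 CPM in TAC/Benzene and 6167.5, 6770.5 and 8375 CPM in TAC/Air. The values were 8050.3, 9277 and 10541 CPM in Sham/Benzene and 8025.5, 9185 and 16082 CPM in Sham/Air. The benzene groups did not overlap, and in air the highest TAC library lay above the lowest sham libraries. The log2 fold change was -0.48 ± 0.14 in benzene (adjusted p = 0.0152) and -0.53 ± 0.14 in air (adjusted p = 0.00715), and in air it was -0.35 ± 0.09 without Sham/Air replicate 1 (adjusted p = 0.00582). A fit of only the 2 air groups lost the call, at an adjusted p of 0.0658, the highest of the alternatives in air, which began at 1.06e-10. Within each group, every library with a GC rank correlation below 0 held more Pln, whose transcript is 38.6% GC, than every library above 0. In TAC/Air these were 7290.5 to 8375 CPM below 0 and 6167.5 to 6250.4 CPM above. With offsets for GC content and length, Pln was called at -0.43 ± 0.05 in benzene (adjusted p = 3.81e-07) and at -0.41 ± 0.05 in air (adjusted p = 8.07e-07). The ratio of Pln to Atp2a2 counts within a library, on the log2 scale, averaged -0.79 ± 0.15 (SD) in TAC/Benzene, -0.72 ± 0.13 in TAC/Air, -0.81 ± 0.17 in Sham/Benzene and -0.86 ± 0.20 in Sham/Air (-0.93 ± 0.13 without replicate 1). The ranges of this ratio of raw counts overlapped in all 4 groups. The ratio has no offsets, and the transcripts differ in GC content, at 38.6% for Pln and 48.2% for Atp2a2. With GC and length offsets Atp2a2 was at -0.52 ± 0.06 in benzene and -0.64 ± 0.06 in air, beside the values of Pln above. The ratio was not computed with offsets, so the overlap does not show that both transcripts fell equally.

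Sarcolipin, the pump inhibitor typical of the atrium, was scarce and varied most among sham hearts that breathed benzene. Sln had a lowest, median and highest level of 3.67, 4.95 and 5.49 CPM in TAC/Benzene and 4.07, 5.07 and 7.09 CPM in TAC/Air. The values were 2.68, 10.7 and 24.8 CPM in Sham/Benzene and 2.84, 7.02 and 7.98 CPM in Sham/Air. In Sham/Benzene, 4 libraries lay above all TAC/Benzene libraries and 2 lay within or below them. The log2 fold change was -1.19 ± 0.32 in TAC/Benzene over Sham/Benzene (adjusted p = 0.0099) and -0.34 ± 0.34 in TAC/Air over Sham/Air (adjusted p = 0.551), and in air it was -0.45 ± 0.34 without Sham/Air replicate 1 (adjusted p = 0.388). The call in benzene was lost without Sham/Benzene replicate 4, the library at 24.8 CPM, where the value was -0.76 (adjusted p = 0.0594), the highest of the 33 alternatives, which began at 0.000165. Of 8 atrial markers, 4 were highest in that library within its group: Myl7, an atrial myosin light chain gene, at 83.4 CPM (next 42.3), Myl4, another such gene, at 108 CPM (next 65.3), Stard10 at 45.4 CPM (next 39.1), and Dkk3, a secreted Wnt modulator gene, at 53.3 CPM (next 26.8). The other 4 were not. Kcnj3, a potassium channel gene, was at its lowest there, at 95.6 CPM (highest 138.3), Nr2f2 was at 19.9 CPM (highest 22.1), Tbx5 at 25.9 CPM (highest 27.5), and Bmp10 at 0. The summed level of the 8 atrial markers was 169 to 189 CPM in TAC/Benzene and 199.9 to 220.1 CPM in TAC/Air, against 225 to 431 CPM in Sham/Benzene and 242.5 to 375 CPM in Sham/Air. Kcnj3 averaged 50.7 and 54.8 CPM in these TAC groups, against 110.3 and 129.9 in these sham groups. Dkk3 went the other way, at 47.2 and 64.6 CPM against 28.4 and 18.4. The highest Sham/Air sum was that of replicate 1, where Kcnj3 was at 250.2 CPM and Myl7, at 11.9 CPM, was the lowest of its group. The part of atrial tissue in the levels of Sln was not tested.

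The release channel gene Ryr2 fell with TAC in air. Its lowest, median and highest levels were 1348, 1491 and 1699 CPM in TAC/Benzene and 1069.8, 1393 and 1551 CPM in TAC/Air. They were 1449, 1802 and 2343 CPM in Sham/Benzene and 1627, 1760.3 and 2882 CPM in Sham/Air. The air groups did not overlap, and the benzene groups did. The log2 fold change was -0.55 ± 0.14 in air (adjusted p = 0.0074) and -0.32 ± 0.14 in benzene (adjusted p = 0.138). Without Sham/Air replicate 1 it was -0.41 ± 0.12 in air (adjusted p = 0.0102) and unchanged at -0.32 in benzene, where it passed at an adjusted p of 0.03. Over the alternatives the adjusted p ran from 5.37e-06 to 0.294 in benzene and from 4.93e-07 to 0.0438 in air. The difference between the 2 effects, 0.23 ± 0.20, did not pass (adjusted p = 1.0).

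Among the luminal and anchoring proteins of the reticulum, Hrc showed the deepest fall, while calsequestrin did not follow. Hrc had a lowest, median and highest level of 484, 616 and 671 CPM in TAC/Benzene and 351, 624 and 718 CPM in TAC/Air. The values were 821, 999 and 1178 CPM in Sham/Benzene and 917, 1061 and 2541 CPM in Sham/Air. TAC and sham libraries did not overlap under either exposure. The log2 fold change was -0.74 ± 0.20 in benzene (adjusted p = 0.0108) and -1.11 ± 0.20 in air (adjusted p = 0.000292), and in air it was -0.80 ± 0.13 without Sham/Air replicate 1 (adjusted p = 4.97e-05). With offsets for GC content and length the call in benzene was lost, at -0.80 ± 0.31 (adjusted p = 0.058), and Sham/Air replicate 1 was at 4600 CPM on that scale. With the same offsets and without that library, Hrc passed in benzene at -0.80 ± 0.10 (adjusted p = 6.12e-07). In TAC/Benzene, TAC/Air and Sham/Benzene, libraries with a GC rank correlation above 0 held more Hrc, whose transcript is 53.3% GC, than those below 0, and in Sham/Air the 2 kinds overlapped. Over the alternatives the adjusted p ran from 4.17e-07 to 0.058 in benzene and from 8.4e-07 to 0.0146 in air.

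Casq2 ran from 1393 to 1543 CPM in TAC/Benzene and from 1350.0 to 1531 CPM in TAC/Air, against 1147 to 1422 CPM in Sham/Benzene and 1249 to 2344 CPM in Sham/Air. The groups overlapped under both exposures. Its log2 fold change was 0.19 ± 0.11 in benzene (adjusted p = 0.315) and -0.06 ± 0.11 in air (adjusted p = 0.797). Without Sham/Air replicate 1, Casq2 passed as the 1 gene higher in TAC/Benzene, at 0.19 ± 0.06 (adjusted p = 0.0138), and in air the value was 0.12 ± 0.06 (adjusted p = 0.18). In each group, libraries with a GC rank correlation below 0 held more Casq2, whose transcript is 47.2% GC, than those above 0, at 1497 to 1531 CPM against 1350.0 to 1406 CPM in TAC/Air. Over the alternatives the adjusted p ran from 0.00036 to 0.46 in benzene and from 0.0717 to 0.903 in air.

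Triadin and junctophilin transcripts, like those of Pln, Casq2 and Hrc, differed with the sign of the GC trend in most groups. Libraries above and below 0 did not overlap in any of the 4 groups for Pln, Casq2 and Jph2. This held in 3 groups for Trdn and Hrc, in 2 for Atp2a2, Ryr2 and Slc8a1, in 1 for Sln and in 0 for Cacna1c. The share of all tested genes that separate in this way was not computed. With few libraries of each kind a gene can separate by chance, so these counts do not set these genes apart from others. The median GC content of tested genes was 49.7%, near the 47.2% of Casq2. Trdn, whose transcript is 36.8% GC, had a lowest, median and highest level of 344, 378 and 409 CPM in TAC/Benzene and 355, 370.4 and 448 CPM in TAC/Air, against 377, 461 and 572 CPM in Sham/Benzene and 393, 512 and 1516 CPM in Sham/Air. TAC and sham libraries overlapped under both exposures. Libraries with a GC rank correlation below 0 held more Trdn than those above 0 in TAC/Benzene, Sham/Benzene and Sham/Air, and in TAC/Air the 2 kinds overlapped, at 367 to 448 CPM below 0 and 355 to 373.5 CPM above. Its log2 fold change was -0.31 ± 0.23 in benzene (adjusted p = 0.425) and -0.73 ± 0.23 in air (adjusted p = 0.0274). Without Sham/Air replicate 1 the value in air was -0.28 ± 0.10 (adjusted p = 0.0523), which ended the call. In benzene it passed without that library, at -0.31 ± 0.10 (adjusted p = 0.0192), and with GC and length offsets, at -0.27 ± 0.09 (adjusted p = 0.031). With those offsets the value in air was -0.48 ± 0.09 (adjusted p = 0.000212). Over the alternatives the adjusted p ran from 0.000318 to 0.596 in benzene and from 1.02e-05 to 0.16 in air.

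Jph2, at 61.8% GC, had a lowest, median and highest level of 512, 614 and 685 CPM in TAC/Benzene and 422, 587 and 686 CPM in TAC/Air, against 472, 599 and 738 CPM in Sham/Benzene and 114, 617 and 764 CPM in Sham/Air. All 4 groups overlapped. In each group, the libraries with a GC rank correlation above 0 held more Jph2 than those below 0. The ranges were 604 to 685 CPM against 512 to 522 CPM in TAC/Benzene (4 and 2 libraries), and 666 to 686 CPM against 422 to 508 CPM in TAC/Air (3 and 3). They were 692 to 738 CPM against 472 to 506 CPM in Sham/Benzene (3 and 3), and 676 to 764 CPM against 114 to 557.5 CPM in Sham/Air (3 and 3). Its log2 fold change was -0.0075 ± 0.26 in benzene (adjusted p = 0.992) and 0.02 ± 0.26 in air (adjusted p = 0.969), where it was -0.19 ± 0.14 without Sham/Air replicate 1 (adjusted p = 0.382). With GC and length offsets Jph2 was lower in TAC/Benzene, at -0.18 ± 0.06 (adjusted p = 0.0178), and in TAC/Air, at -0.16 ± 0.06 (adjusted p = 0.0298). Over the alternatives the adjusted p ran from 0.000673 to 1.0 in benzene and from 0.000474 to 1.0 in air.

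**Figure D2:**
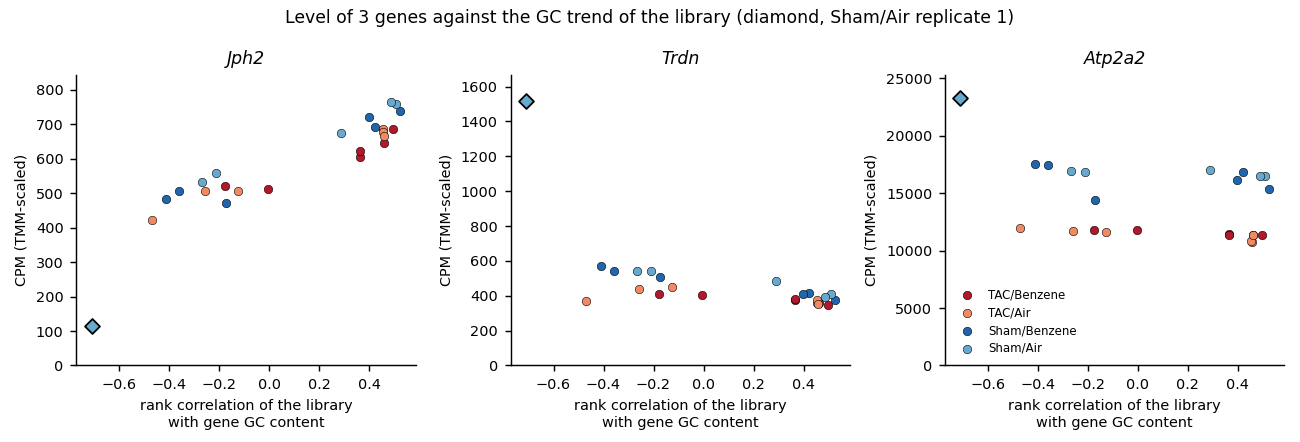
Level in CPM (vertical axes, from 0) of Jph2, Trdn and Atp2a2 in each library against the rank correlation of that library with gene GC content (horizontal axes), coloured by group, with Sham/Air replicate 1 as a diamond. Jph2 is at 604 CPM or more in every library above 0 and at 557.5 CPM or less in every library below 0, and Atp2a2 is lower in each of the 12 TAC libraries than in each of the 12 sham libraries.

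The channel and exchanger genes of the cell surface did not pass the test in either TAC comparison. Cacna1c ran from 232 to 287.5 CPM in TAC/Benzene and from 217 to 289 CPM in TAC/Air, against 255 to 342 CPM in Sham/Benzene and 231 to 308 CPM in Sham/Air. The groups overlapped, and the log2 fold change was -0.14 ± 0.09 in benzene (adjusted p = 0.364) and -0.14 ± 0.09 in air (adjusted p = 0.348), where it was -0.19 ± 0.08 without Sham/Air replicate 1 (adjusted p = 0.0993). Slc8a1 ran from 559.6 to 709.6 CPM in TAC/Benzene and from 455.5 to 669.9 CPM in TAC/Air, against 445.5 to 713 CPM in Sham/Benzene and 491 to 1217 CPM in Sham/Air. Its log2 fold change was 0.07 ± 0.18 in benzene (adjusted p = 0.878) and -0.22 ± 0.18 in air (adjusted p = 0.439), and in air it was 0.04 ± 0.11 without Sham/Air replicate 1. With GC and length offsets and without that library, Cacna1c was lower in TAC/Benzene (-0.17 ± 0.04, adjusted p = 0.00137) and in TAC/Air (-0.19 ± 0.04, adjusted p = 0.000674), and Slc8a1 was higher in TAC/Benzene (0.12 ± 0.05, adjusted p = 0.0478). Over the alternatives the adjusted p of Cacna1c ran from 0.00137 to 0.56 in benzene and from 0.000674 to 0.545 in air, and that of Slc8a1 from 0.0478 to 0.999 in benzene and from 0.274 to 0.829 in air.

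Set against the pump, exchanger transcript stood higher in TAC libraries. The log2 ratio of Slc8a1 to Atp2a2 counts within a library averaged -4.25 ± 0.11 (SD) in TAC/Benzene and -4.35 ± 0.17 in TAC/Air, against -4.84 ± 0.20 in Sham/Benzene and -4.84 ± 0.31 in Sham/Air (-4.95 ± 0.14 without replicate 1). It ran from -4.35 to -4.05 in TAC/Benzene and from -5.11 to -4.61 in Sham/Benzene, which did not overlap. Its range was -4.57 to -4.16 in TAC/Air and -5.07 to -4.26 in Sham/Air, where replicate 1 alone lay above -4.78. The ratio carries no test here, since it was chosen with the fall of Atp2a2 known. It also has no offsets. The transcripts are 40.2% GC and 18.5 kb for Slc8a1, and 48.2% GC and 5.67 kb for Atp2a2. In TAC/Air, Sham/Benzene and Sham/Air, every library with a GC rank correlation below 0 had a higher ratio than every library above 0. In TAC/Benzene these libraries overlapped.

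**Figure D3:**
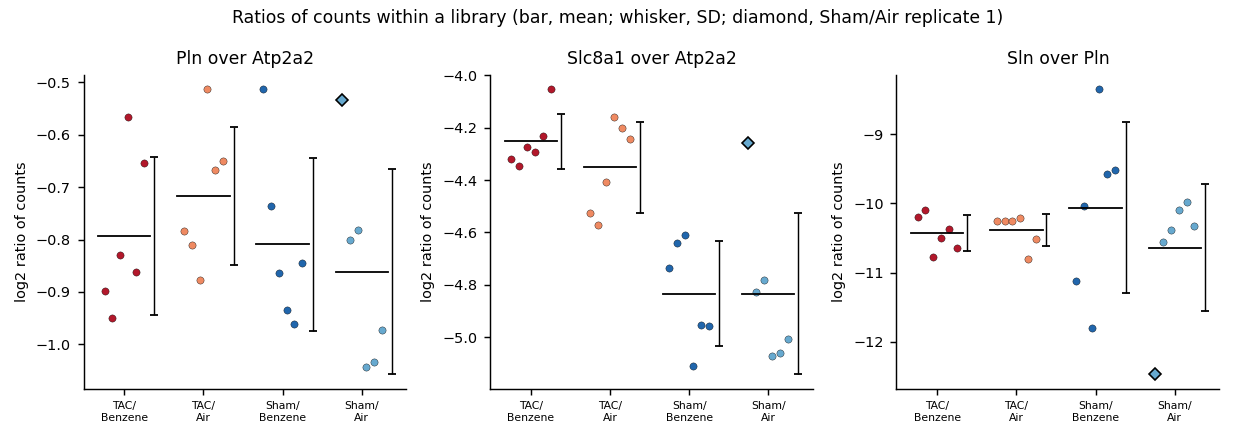
Log2 ratio of read counts within each library (vertical axes) for Pln over Atp2a2, Slc8a1 over Atp2a2 and Sln over Pln in the 4 groups of 6 libraries, with means as bars and SD as whiskers. Pln over Atp2a2 overlaps between all groups, Slc8a1 over Atp2a2 is higher in both TAC groups apart from Sham/Air replicate 1, drawn as a diamond, and Sln over Pln spreads most in Sham/Benzene, from -11.80 to -8.34.

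**Figure D4:**
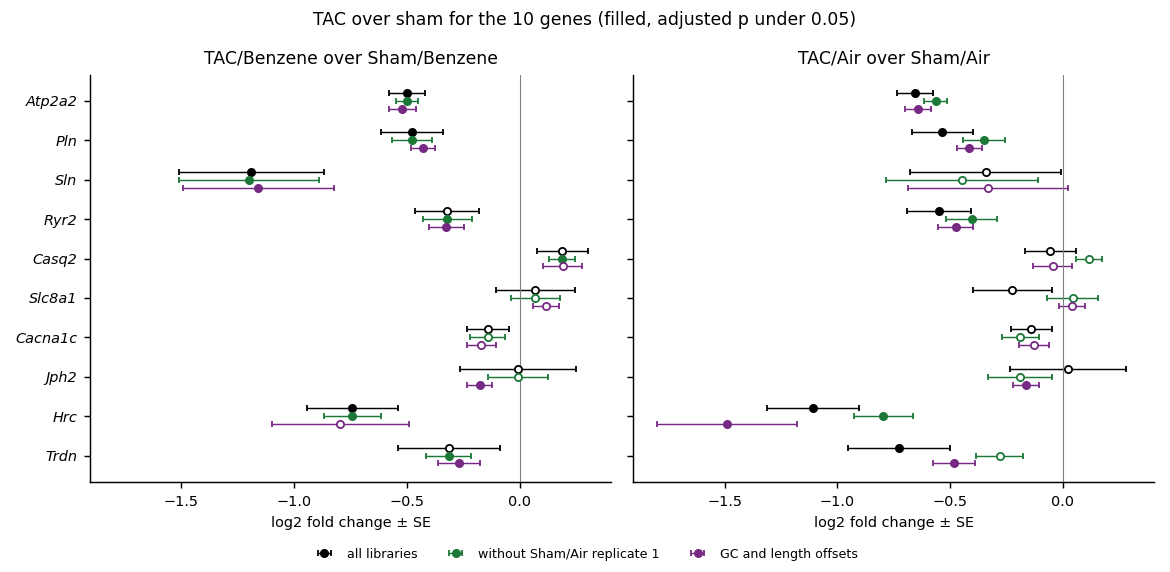
Log2 fold change with its SE (horizontal axes) of the 10 genes in TAC/Benzene over Sham/Benzene and in TAC/Air over Sham/Air, with all libraries, without Sham/Air replicate 1 and with GC and length offsets, filled where the adjusted p was under 0.05. Atp2a2 and Pln are filled in all 6 settings, and Slc8a1 and Cacna1c in none.

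Benzene made no difference to these genes that passed the test. For Sham/Benzene over Sham/Air, 0 of 10 were called by edgeR, with 1 at an unadjusted p under 0.05, and 0 by DESeq2 (3 unadjusted) and limma-voom (1 unadjusted). Of all tested genes, edgeR called 0.0221%, DESeq2 28 genes and limma-voom 6. For TAC/Benzene over TAC/Air, 0 of 10 were called by edgeR and DESeq2 (0 unadjusted) and by limma-voom (1 unadjusted). Here edgeR called 0.582% of tested genes, DESeq2 171 genes and limma-voom 556 (4.10%). For the surgery by benzene interaction, 0 of 10 were called by the 3 tools (0 unadjusted), where edgeR called 0.169% of tested genes, DESeq2 57 genes and limma-voom 93. Shares of all genes at an unadjusted p under 0.05 were not computed. Without Sham/Air replicate 1, edgeR called 0 in each, with 0 unadjusted, beside 0.0146%, 1.71% and 0.359% of tested genes.

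In TAC hearts the log2 fold change of benzene over air lay between -0.11 ± 0.33 for Sln and 0.17 ± 0.14 for Ryr2, and it was 0.02 ± 0.08 for Atp2a2, -0.06 ± 0.14 for Pln and -0.00096 ± 0.20 for Hrc. In sham hearts it lay between -0.46 ± 0.23 for Trdn and 0.74 ± 0.32 for Sln (unadjusted p = 0.0315, adjusted p = 0.819). Without Sham/Air replicate 1 the values were -0.01 ± 0.10 for Trdn and 0.64 ± 0.32 for Sln. The interaction, the TAC effect in benzene minus that in air, lay between -0.85 ± 0.46 for Sln and 0.41 ± 0.32 for Trdn, which was at -0.03 ± 0.14 without that library. Misses of the threshold do not show equal levels, and the SE of each value is the precision of these libraries.

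The wider calcium machinery was read from 4 lists of other genes, whose counts are to be read beside the shares of all tested genes, 7.97% lower and 8.67% higher in benzene and 7.35% lower and 8.81% higher in air. Counts moved with the setting, and so did these shares, which were 14.4% lower and 12.4% higher in benzene and 15.7% lower and 11.9% higher in air with GC and length offsets. Each list gene named below as called in air was also called without Sham/Air replicate 1. Naming a list gene in 1 exposure alone does not show that its TAC effect differs between exposures. In the surgery by benzene interaction edgeR called no list gene, beside 0.169% of all tested genes. Among 26 regulators of the pump and of release, 3 were lower and 1 higher in TAC/Benzene over Sham/Benzene, and 6 were lower and 2 higher in TAC/Air over Sham/Air, with medians of -0.07 and -0.12. Over 10 alternatives, 3 to 10 were lower and 1 to 4 higher in benzene, with 7 lower and 4 higher under the offsets. In air 1 to 13 were lower and 1 to 4 higher, with 13 lower under the offsets, 2 with the replicate block and 1 in the 2-group fit. Strit1, which encodes the SERCA activator DWORF, fell by 1.16 in benzene, at 3.52 ± 1.26 CPM in TAC/Benzene and 7.92 ± 2.52 CPM in Sham/Benzene (SD, n = 6 each; adjusted p = 0.00198). In air it had 4.39 ± 1.64 CPM in TAC/Air, against 8.55 ± 2.18 CPM in Sham/Air (adjusted p = 0.0082). Prkar1a, a regulatory subunit of protein kinase A, rose by 0.49 ± 0.09 in benzene (adjusted p = 0.000186) and 0.66 ± 0.09 in air (adjusted p = 3.19e-06). Pde4d, a phosphodiesterase that breaks down cyclic AMP, had values of -0.55 ± 0.12 in benzene (adjusted p = 0.00193) and -0.51 ± 0.12 in air (adjusted p = 0.00464). Camk2a, a calmodulin kinase subunit, fell in benzene (-0.69 ± 0.18, adjusted p = 0.00899), and Ppp1r1a, an inhibitor of protein phosphatase that spares phospholamban phosphorylation, fell in air (-1.43 ± 0.44, adjusted p = 0.0246), with 0.541 CPM in TAC/Air against 1.45 CPM in Sham/Air.

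Of 17 tested genes of the junction and lumen, 2 were lower and 1 higher in benzene, and 2 were lower and 2 higher in air, with medians of 0.07 and -0.04. Over the same alternatives 2 to 6 were lower and 1 to 3 higher in benzene, and 1 to 6 lower and 1 to 2 higher in air, with 5 lower under the offsets in both. The junctophilin gene Jph1 was lower in both, at -0.40 ± 0.10 in benzene (adjusted p = 0.00707) and -0.48 ± 0.11 in air (adjusted p = 0.0016). Jsrp1, a junctional protein gene of muscle, was higher in both, at 1.48 ± 0.75 CPM in TAC/Benzene and 0.632 ± 0.359 CPM in Sham/Benzene (adjusted p = 0.0133), and with 1.42 ± 0.23 CPM in TAC/Air against 0.424 ± 0.288 CPM in Sham/Air (adjusted p = 0.00699). Casq1, the skeletal calsequestrin gene, was lower in benzene (-0.44 ± 0.13, adjusted p = 0.017). In air, Cmya5, which anchors the cardiac junction, was lower (-0.58 ± 0.16, adjusted p = 0.011; -0.32 without Sham/Air replicate 1), and Bin1, which shapes T-tubules, was higher (0.53 ± 0.17, adjusted p = 0.0294).

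Of 22 tested genes of calcium entry and exit, 6 were lower and 2 higher in benzene, and 4 were lower and 2 higher in air, with medians of -0.10 and -0.02. Over the alternatives 6 to 8 were lower and 2 to 5 higher in benzene, and 4 to 8 lower and 2 to 4 higher in air. Cacng6, an accessory channel subunit gene, had the largest fall of those named, at 0.165 ± 0.118 CPM in TAC/Benzene and 2.37 ± 1.10 CPM in Sham/Benzene (log2 fold change -3.70 ± 0.40, adjusted p = 9.97e-08), and with 0.720 ± 0.223 CPM in TAC/Air against 2.12 ± 0.69 CPM in Sham/Air (-1.58 ± 0.32, adjusted p = 0.000788). For benzene over air in TAC hearts, edgeR called it alone of the 4 lists (-2.02 ± 0.46, adjusted p = 0.0366), beside 0.582% of tested genes, and it was singled out there after its values were seen. Limma-voom, which called 4.10% of tested genes, had 1 lower among the pump and release regulators, 2 higher among the junction and lumen genes, and 1 lower and 2 higher among the entry and exit genes. With offsets and without Sham/Air replicate 1 the counts were 1 lower and 2 higher, 1 lower and 2 higher, and 3 lower and 1 higher in these lists, and the fit of only the TAC groups called 1 pump and release regulator lower and 0 entry and exit genes. Cacna1s, the skeletal L-type pore gene, was at -0.69 ± 0.14 in benzene (adjusted p = 0.000607) and -0.65 ± 0.14 in air (adjusted p = 0.00128). Cacnb1, a channel beta subunit gene, was higher by 0.52 ± 0.12 in benzene (adjusted p = 0.00266) and 0.81 ± 0.12 in air (adjusted p = 2.46e-05); with GC and length offsets the call in benzene was lost (0.38, adjusted p = 0.13).

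Of 16 tested genes of store-operated entry and mitochondrial calcium, 2 were lower and 1 higher in each comparison, with medians of 0.04 in benzene and 0.03 in air. Over the alternatives 1 to 4 were lower and 1 to 4 higher in each. Orai2, a store-operated channel gene, was higher, at 4.74 ± 0.65 CPM in TAC/Benzene and 2.22 ± 0.73 CPM in Sham/Benzene (adjusted p = 0.000599), and with 4.98 ± 0.75 CPM in TAC/Air against 2.15 ± 0.98 CPM in Sham/Air (adjusted p = 0.00072). Vdac1, a channel gene of the outer mitochondrial membrane, was at -0.24 ± 0.07 in benzene (adjusted p = 0.0114) and -0.24 ± 0.07 in air (adjusted p = 0.014). Letm1, an ion exchange protein gene of the inner mitochondrial membrane, was lower in air (-0.41 ± 0.09, adjusted p = 0.00186).

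The genes whose levels ranked most like Atp2a2 over the 24 libraries were Pik3r1 (Spearman rho 0.975), Fam210a (0.970), Abcd3 (0.967), Prox1 (0.952) and Ctnna1 (0.951). Each was lower on average in both TAC groups than in both sham groups, which follows largely from choosing them by likeness to Atp2a2. Pik3r1, a regulatory subunit of phosphoinositide kinase, averaged 139 CPM in TAC/Benzene and 132 CPM in TAC/Air, against 194 CPM in Sham/Benzene and 242 CPM in Sham/Air. Those most like Sln were Cryba4 (0.856), Dnph1 (0.823), Bsg (0.798), Myl4 (0.792) and Nfs1 (0.779). The libraries share surgery group, depth and GC trend, so these values describe rank order over the libraries and carry no test.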

How the data were processed

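The values used are raw counts: the authors deposited whole-number reads per symbol for each library, without normalization. Their tools were FastQC 0.11.9, STAR and DESeq2 on mm9, per the submitters' processing notes. How reads were counted, with which annotation and strand setting, is not given in the sources used here, so reads of overlapping or antisense genes cannot be told apart. Poly-A RNA was sequenced as paired reads, per the labels' protocols. Groups and replicate numbers came from the sample titles.

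The expression filter of edgeR 4.0.16, run in R 4.3.3, was applied (minimum count 10, minimum total 15). The genes left out held 0.0747% of counts, and 5678 symbols had none. TMM scaled the library sizes. A single quasi-likelihood model with robust dispersion covered the 24 libraries, each group having its own coefficient, and p-values were adjusted over all tested genes by Benjamini-Hochberg, with 0.05 as the threshold. Adjusted p-values in the text come from this test unless another is named. Standard errors were derived from each F statistic. The fit was tested on simulated data. Alternatives were DESeq2 1.42.0, relative log expression size factors, limma-voom (limma 3.58.1) with quality weights, no filter, a fit of only the groups compared, a replicate block, offsets for each library's loess trend (span 0.5) with GC content and transcript length, each library left out in turn and, chosen after seeing the data, those offsets without Sham/Air replicate 1.

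The longest transcript per symbol in GENCODE vM21 gave GC content and length (96.6% of symbols matched), and promoters came from RefSeq (GRCm38.p6). Gene coordinates of the count table's build are not given. The 10 genes and the lists were chosen with earlier results of these data known. Named genes were all 10 members, the called genes of smallest p in each list (at most 4 per list and TAC comparison) and the 5 genes most like Atp2a2 and Sln; some genes that this rule names are not reported here. A gene expressed in the libraries of 1 group alone can pass the filter. The deposited counts of a library pair of 1 group differed by 1.81 to 111 times the chi-square per degree of freedom that sampling alone gives, so no library was counted as a duplicate.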

Additional observations from a re-analysis of the deposited data

Results flagged for a closer look

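Of the 40 sets of 6 values (10 genes in 4 groups), 11 held a library whose gap to the nearest other library took a larger share of the range than Dixon's critical value for 6 values allows, where chance gives about 1 in 20. In 9 of the 11 it was Sham/Air replicate 1. That library held 23282 CPM of Atp2a2 (next 17033), 16082 of Pln (next 9840.0), 2882 of Ryr2 (next 2002), 2344 of Casq2 (next 1438), 1217 of Slc8a1 (next 616.1), 2541 of Hrc (next 1147) and 1516 of Trdn (next 544.6). It held the lowest Sham/Air values of Sln, at 2.84 CPM (next 6.42), and Jph2, at 113.9 CPM (next 533.3). The others were TAC/Air replicate 4, at 7.09 CPM of Sln (next 5.11), and TAC/Benzene replicate 6, at 709.6 CPM of Slc8a1 (next 604.0).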

How the results depend on the processing

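The lower Atp2a2 in TAC under both exposures, Pln in benzene, and Ryr2 and Hrc in air kept their call in all 33 alternatives. Calls of Pln and Trdn in air and of Sln and Hrc in benzene were lost in at least 1. No pairing of libraries across groups by replicate number was seen. Deviations of same-numbered libraries of different groups correlated at a median of -0.05, with 9 of 36 pairs above 0.1. For other numbers the median was 0.02, with 66 of 180 pairs above 0.1. Of the libraries, 1 correlated best with its own number. These deviations had no GC offsets, and the GC trend can hide a pairing, so the check cannot exclude one. Within groups the GC trend did go with the numbers. In both sham groups it was below 0 in replicates 1 to 3 and above 0 in 4 to 6, and in TAC/Air the reverse. In TAC/Benzene it was below 0 in replicates 4 and 6, at -0.00547 and -0.177. A block with the same term for a number in all groups cannot take up a trend whose sign differs between groups. With the replicate block 4 of the 10 genes were called in benzene and 4 in air, beside 1951 and 1867 of all tested genes. Trdn was then at -0.61 in air (adjusted p = 0.0783), and Jph2 in benzene was at 0.0171. With the block, 46 genes of all tested were called for benzene in TAC and 14 for the interaction.

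Counts of genes called among all tested were 2257 for TAC in benzene, 2193 for TAC in air, 3 for benzene in sham, 79 for benzene in TAC and 23 for the interaction. With GC and length offsets they were 3634, 3744, 11, 230 and 57, and with these and the replicate block 3402, 3467, 5 and 161 for the first 4. With these and without Sham/Air replicate 1 they were 4891, 4356, 33, 602 and 179. Limma-voom gave 4497, 3739, 6, 556 and 93. DESeq2 gave 28 for benzene in sham, 171 in TAC and 57 for the interaction. A fit of only the 2 groups gave 1278 in air, 1 for benzene in sham and 276 in TAC, and no filter gave 1 for benzene in sham. Leaving out a library gave 1929 to 3667 in benzene, 1 to 5 for benzene in sham, 52 to 234 for benzene in TAC and 15 to 49 for the interaction. Of the 10 genes, the count called in benzene was 7 in the 2-group fit, beside 3346 of all tested genes. It was 7 with GC and length offsets and the block, and 10 with the offsets and without Sham/Air replicate 1, beside the 3402 and 4891 above. With a library left out it was 3 to 7. It was 7 without Sham/Air replicate 1, beside 3667 of all genes, and 3 without Sham/Benzene replicate 4, beside 2153. In air it was 3 in the 2-group fit, beside 1278 of all genes.

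Log2 fold changes that turned sign are given for the GC and length offsets, the offsets with the block, the offsets without Sham/Air replicate 1 and limma-voom, in this order, with no value where the sign held. For TAC in air, Jph2 was at -0.163, -0.159, -0.201 and -0.216, Slc8a1 at 0.0406, 0.0412, 0.0178 and 0.0646, and Casq2 at 0.0817 without that library and 0.129 by limma-voom. For benzene in TAC, Jph2 was at -0.0726, -0.0734 and -0.0713, Pln at 0.00574, 0.0056 and 0.00523, and Trdn at 0.0014, 0.0076 and 0.00199. Hrc was at 0.00367 with offsets and block, 0.0217 by limma-voom and 0.0124 with the block alone. For benzene in sham, Jph2 was at -0.0583, -0.0574, -0.0884 and -0.0498, Pln at 0.02, 0.0196, 0.00828 and 0.0528, Slc8a1 at 0.0398, 0.0391, 0.0173 and 0.0222, and Ryr2 at 0.0753 without that library and 0.0368 by limma-voom. For the interaction, Pln was at -0.0142, -0.014, -0.00305 and -0.138, and Jph2 at 0.0171 without that library and 0.143 by limma-voom. Cacna1c was at 0.023 without it, 0.0904 by limma-voom, 0.00765 by DESeq2, 0.00583 with relative log expression factors and 0.00235 with the block. With a library left out, the ranges that crossed 0 were, for TAC in air, -0.106 to 0.116 for Casq2, -0.19 to 0.121 for Jph2 and -0.298 to 0.0442 for Slc8a1, and for TAC in benzene -0.0745 to 0.0541 for Jph2. For benzene in TAC they were -0.0121 to 0.0271 for Casq2, -0.115 to 0.0636 for Hrc, -0.0241 to 0.11 for Jph2 and -0.111 to 0.000917 for Pln. For benzene in sham they were -0.129 to 0.189 for Jph2, -0.166 to 0.0717 for Pln, -0.123 to 0.0903 for Ryr2 and -0.253 to 0.0827 for Slc8a1. For the interaction they were -0.0432 to 0.0462 for Cacna1c, -0.134 to 0.182 for Jph2, -0.128 to 0.115 for Pln and -0.0334 to 0.52 for Trdn. None of these values was called with all libraries and no offsets, and the cause was not tested. Depth limited Sln most, whose count was 10 in Sham/Air replicate 1.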
